A study of Homo sapiens with 6 samples.

Results

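The genes described here are 10 markers of epithelial and mesenchymal cell state, found by gene symbol among the 60623 genes of the deposited tables. Epithelial markers were CDH1, ESRP1 and OVOL1. Mesenchymal markers were CDH2, VIM, FN1, SNAI1, SNAI2, ZEB1 and ZEB2. The 6 libraries hold RNA of PLC/PRF/5, a long-established human line of hepatocellular carcinoma. In 3 of them the cells were labelled as having received a lentiviral vector for overexpression of ZFP64, a zinc finger protein (labelled ZFP64-OE), and in the other 3 a control lentivirus (labelled control), so every library comes from lentivirus-treated cells. Replicates are named below by these labels. Whether each line is 1 clone or a pool is not stated, nor whether replicates are separate cultures, so the p-values reflect the spread between these samples alone, and that spread may be technical. The title of the series sets ZFP64 with PKCα, CSF1 and macrophage polarization, and the comparison asks what transcripts change with ZFP64.

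Epithelial cells are held in sheets by E-cadherin, the product of CDH1, which links neighbouring cells through catenins to the actin cytoskeleton. In epithelial-mesenchymal transition, transcription factors of the SNAI and ZEB families bind E-box motifs and repress CDH1 and other junction genes, while N-cadherin (CDH2), the intermediate filament vimentin (VIM) and the matrix protein fibronectin (FN1) become more abundant. ESRP1, a splicing factor, and OVOL1, a zinc finger repressor, maintain the epithelial state, and microRNAs of the miR-200 family repress ZEB1 and ZEB2. Hepatocytes are an epithelium that also makes fibronectin, which they secrete into plasma.

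The miR-200 family is shown because its members form a double-negative loop with 2 of the 10 markers, ZEB1 and ZEB2. The 5 mature sequences, from RefSeq on GRCh38.p14, fall into 2 seed groups that differ by 1 base, and the seed, bases 2 to 8, is in capitals. miR-200b, miR-200a and miR-429 lie on chromosome 1, and miR-200c and miR-141 on chromosome 12.
hsa-miR-200b-3p: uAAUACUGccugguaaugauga
hsa-miR-200c-3p: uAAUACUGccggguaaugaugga
hsa-miR-429: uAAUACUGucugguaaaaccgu
hsa-miR-200a-3p: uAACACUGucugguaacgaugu
hsa-miR-141-3p: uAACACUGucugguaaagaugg
The longest GENCODE v29 3′ UTR of ZEB1, of 2549 bases in the last exon of the gene, held the match to the first seed, CAGTATT, 6 times and the match to the second, CAGTGTT, 3 times. Of those 9 sites, 3 are shown from the plus strand of GRCh38, each as 29 bases with the seed match in capitals.
ZEB1 site at chr10:31527622-31527650: ttttatcttatCAGTATTatcactcttat
ZEB1 site at chr10:31528566-31528594: ttcaaacctggCAGTATTaatacccttct
ZEB1 site at chr10:31528035-31528063: atcatcagaatCAGTGTTtgtgattgtgt
ZEB2 held CAGTATT 5 times and CAGTGTT 4 times in 5370 bases of 3′ UTR. Among the longest 3′ UTRs of 19126 genes, 16.0% held CAGTATT and 0.842% held it 3 times or more, and 18.4% held CAGTGTT and 1.05% held it 3 times or more. FN1 had 2 matches to CAGTATT and none to CAGTGTT, ESRP1 had 1 to each, SNAI2 had 1 to CAGTATT, and CDH1, OVOL1, CDH2, VIM and SNAI1 had no match to either. A match is a run of letters and not a measured site, and these libraries do not measure mature microRNAs. The host gene MIR200CHG had 1 count in all 6 libraries together, and the rows of MIR200A, MIR200B, MIR200C, MIR141, MIR429 and MIR205 had 0 counts in every library. These rows were chosen after their values were seen.

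Promoter windows, running from 250 bases before to 50 bases after a RefSeq transcription start, were found for 5 of the 10 markers: CDH2, VIM, FN1, ZEB1 and ZEB2. CDH1, ESRP1, OVOL1, SNAI1 and SNAI2 had no entry. The E-box that SNAI and ZEB factors bind, CACCTG with its reverse complement CAGGTG, was in none of the windows of CDH2, VIM, FN1 or ZEB2. ZEB1 had 7 windows, of which 1 held a single copy, at -57. Another, shown here because it held 3 copies, has them at -242, -85 and 33 relative to the start, all in capitals. It lies at chr10:31318966-31319265 on the plus strand of GRCh38.p14.
ZEB1 promoter: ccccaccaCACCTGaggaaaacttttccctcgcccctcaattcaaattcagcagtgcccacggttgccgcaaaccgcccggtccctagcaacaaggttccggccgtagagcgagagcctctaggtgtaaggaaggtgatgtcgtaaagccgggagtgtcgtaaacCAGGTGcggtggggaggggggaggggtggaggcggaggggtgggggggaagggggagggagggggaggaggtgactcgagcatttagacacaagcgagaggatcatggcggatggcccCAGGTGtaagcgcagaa
Of 35116 windows in the RefSeq table, 20.6% held CACCTG or CAGGTG and 0.635% held 3 or more. The looser motif CANNTG, which includes these, was in 68.7%.

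The libraries labelled ZFP64-OE held 35109227 to 39739674 counts and those labelled control 26468949 to 37466920. The gene that the vector targets ran opposite to the labels: ZFP64 had 1314, 1385 and 1112 counts in the 3 labelled ZFP64-OE and 3620, 6157 and 4552 in the 3 labelled control, 4.31-fold lower in the former after scaling (adjusted p = 2.31e-12 by edgeR). Each direction below is therefore one of labels only, ZFP64-OE against control. Levels are given as FPKM, fragments scaled to gene length and library total. The quasi-likelihood test of edgeR, at an adjusted p of 0.05, called 1114 (5.81%) of the 19173 genes tested, 342 higher (1.78%) and 772 lower (4.03%). By DESeq2 56.8% of the calls were lower, against 69.3% by edgeR. The labelled cell type was checked with 10 hepatocellular genes, of which 9 were tested: APOB, the structural protein of liver lipoproteins, lay between 500 and 1070 FPKM and HNF4A, a hepatocyte transcription factor, between 40.9 and 44.5 FPKM. TTR, another liver product, did not exceed 0.0398 FPKM in any library; HNF4A and TTR were named after their values were seen. Of the 9 tested, 7 passed, also named after their values were seen: ALB (log2 fold change 0.91), FGB (0.83), APOB (0.78), AFP (0.77) and GPC3 (0.41) rose, and SERPINA1 (-0.82) and APOA1 (-0.59) fell. GPC3 lost the call without 4 of the 6 libraries, ZFP64-OE replicates 1 and 2 and control replicates 2 and 3 (edgeR adjusted p up to 0.204), and APOB without control replicate 2 (0.0701). Their part in the results on the marker lists was not tested.

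The PLC/PRF/5 libraries held transcripts of both epithelial and mesenchymal markers. By mean FPKM over the 6 libraries, FN1 was the most abundant of the 10 markers, at 67.7 to 132 FPKM, followed by VIM at 15.1 to 20.1 FPKM and CDH1 at 11.05 to 13.9 FPKM. ZEB1 (3.15 to 4.05 FPKM), SNAI1 (1.72 to 2.47 FPKM) and CDH2 (0.386 to 0.652 FPKM) came next. None of these 6 genes overlapped its neighbour in the order in any library. The other 4, ZEB2, ESRP1, SNAI2 and OVOL1, stayed at or below 0.0407 FPKM, and their order among themselves cannot be told from values that overlap. In RNA from whole cultures, fewer cells of a state and less RNA per cell cannot be told apart, so the levels do not say whether single cells held both cadherins.

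**Figure D1:**
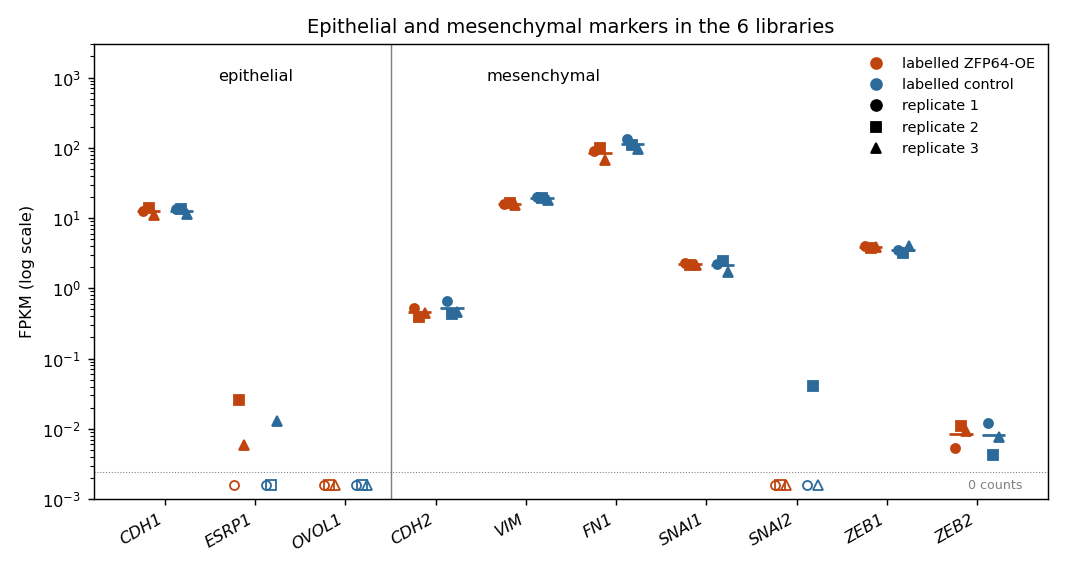
FPKM (log axis) of the 10 markers in each library, epithelial genes on the left and mesenchymal genes on the right, with replicates 1, 2 and 3 as circles, squares and triangles, the group mean as a bar, and libraries with 0 counts as open symbols under the dotted line. FN1 stands highest at 67.7 to 132 FPKM, and ZEB2, ESRP1, SNAI2 and OVOL1 lie at or below 0.0407 FPKM in both groups.

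Among the epithelial markers, CDH1 was the only one above the filter on low counts. CDH1 (ENSG00000039068, chromosome 16, 68737225 to 68835548, plus strand of GRCh38 in GENCODE v29) had 12.6, 13.9 and 11.05 FPKM in the ZFP64-OE-labelled libraries and 13.4, 13.5 and 11.4 FPKM in the control-labelled ones. The groups overlapped, with replicate 3 the lowest library in each. The means were 12.5 ± 1.45 and 12.8 ± 1.16 FPKM (SD, n = 3 each), and the log2 fold change of 0.0052 (standard error 0.101, 95% interval -0.21 to 0.22) was short of the threshold (adjusted p = 0.987 by edgeR). The interval runs from 0.867-fold to 1.16-fold, so a larger shift of CDH1 in either direction lay outside it. The sign of so small a difference turned with the processing: it was -0.028 by limma on log2(FPKM + 1).

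ESRP1, which promotes epithelial splice forms, and OVOL1, which represses ZEB1 in epithelia, had at most 5 counts in any of the 6 libraries. ESRP1 (chromosome 8, 94641074 to 94707466, plus strand) had 0, 5 and 1 counts in the ZFP64-OE-labelled libraries and 0, 0 and 2 in the control-labelled ones. OVOL1 (chromosome 11, 65787022 to 65797219, plus strand) had 0 counts in every library, which allows up to 0.0755 to 0.113 CPM (counts scaled to 1e6 per library) according to the library's depth, taking 3 counts as the limit. Neither passed the filter on low counts; with no filter ESRP1 had an adjusted p of 0.709 by edgeR, and OVOL1 could not be fitted. Such limits cover counting error only.

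CDH2, VIM and FN1, the structural mesenchymal markers, all had lower means in the ZFP64-OE-labelled libraries, and none of the 3 differences passed the test. VIM (ENSG00000026025, chromosome 10, 17228259 to 17237593, plus strand) had 15.8, 16.1 and 15.1 FPKM in the ZFP64-OE-labelled libraries and 20.1, 19.3 and 18.0 FPKM in the control-labelled ones. The groups did not overlap, as was the case in the lower direction for 14.7% of the genes tested, in the higher direction for 8.11% and in either for 22.8%. The means were 15.7 ± 0.496 and 19.1 ± 1.07 FPKM (SD, n = 3 each), with a log2 fold change of -0.25 (standard error 0.0839, 95% interval -0.43 to -0.077, adjusted p = 0.0881 by edgeR). Leaving out 1 library at a time gave VIM an edgeR adjusted p of 0.0575 to 0.196.

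FN1 (ENSG00000115414, chromosome 2, 215360440 to 215436172, minus strand) had 89.4, 98.4 and 67.7 FPKM in the ZFP64-OE-labelled libraries and 132, 111 and 96.8 FPKM in the control-labelled ones. The groups overlapped, since ZFP64-OE replicate 2 lay above control replicate 3, and within each group replicate 3 was the lowest, as for CDH1. The means were 85.2 ± 15.8 and 113 ± 17.7 FPKM (SD, n = 3 each), with a log2 fold change of -0.38 (standard error 0.156, 95% interval -0.71 to -0.051, adjusted p = 0.188 by edgeR). With no filter on low counts the same test passed FN1 (edgeR adjusted p = 0.00512), with a log2 fold change of -0.37. CDH2 (ENSG00000170558, chromosome 18, 27950966 to 28177446, minus strand) had only 68 to 94 counts a library. Its 0.529, 0.386 and 0.449 FPKM against 0.652, 0.432 and 0.466 FPKM overlapped, and its log2 fold change of -0.14 had a wide 95% interval of -0.58 to 0.30 (adjusted p = 0.784 by edgeR). Without control replicate 1, the highest CDH2 library, that value was 0.089.

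**Figure D2:**
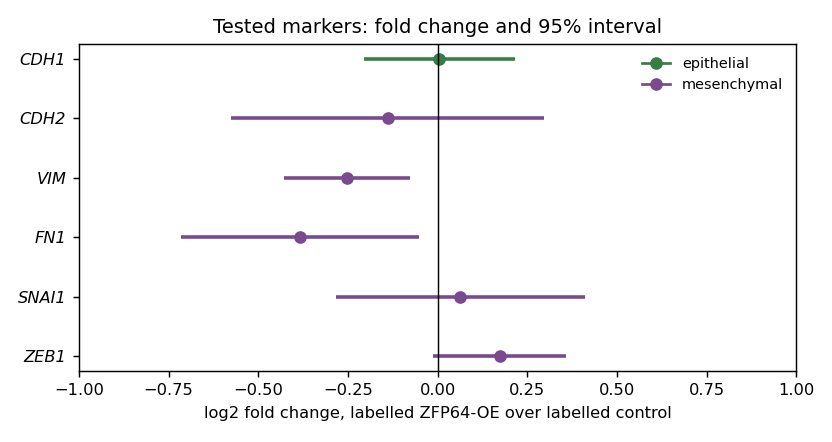
Log2 fold change (libraries labelled ZFP64-OE over labelled control, points) with its 95% interval (lines) for the 6 markers above the filter on low counts, the epithelial one in green and the mesenchymal ones in purple. The intervals of VIM (-0.43 to -0.077) and FN1 (-0.71 to -0.051) lie below 0 and those of CDH1, CDH2, SNAI1 and ZEB1 include it, and no marker passed after adjustment over all genes tested.

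ZEB1 and SNAI1 were the transcription factors above the filter on low counts. ZEB1 (ENSG00000148516, chromosome 10, 31318495 to 31529814, plus strand), which represses CDH1, had 4.05, 3.73 and 3.93 FPKM in the ZFP64-OE-labelled libraries and 3.55, 3.15 and 3.95 FPKM in the control-labelled ones. The groups overlapped through control replicate 3, which lay within the range of the other group. The log2 fold change of ZEB1 was 0.17 (standard error 0.0883, 95% interval -0.012 to 0.36, adjusted p = 0.302 by edgeR), opposite in sign to that of VIM and FN1. The divergent transcript ZEB1-AS1, which lies on the other strand at the ZEB1 start, had 209, 214 and 158 counts against 111, 152 and 142. Its log2 fold change of 0.30 did not pass either (adjusted p = 0.249 by edgeR), and as the strand setting of the counting is not given in the sources used here, reads of the overlapping pair cannot be told apart. VIM-AS1, on the other strand at VIM, had at most 28 counts in a library and a log2 fold change of -0.42 (adjusted p = 0.536 by edgeR). SNAI3-AS1, beside SNAI3, had a log2 fold change of 0.041 (adjusted p = 0.896 by edgeR), and ZEB2-AS1 had 0 counts.

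SNAI1 (ENSG00000124216, chromosome 20, 49982999 to 49988886, plus strand), which encodes Snail, had 2.31, 2.14 and 2.12 FPKM in the ZFP64-OE-labelled libraries and 2.24, 2.47 and 1.72 FPKM in the control-labelled ones. The groups overlapped, and both the highest and the lowest library were labelled control. Its log2 fold change was 0.063 (standard error 0.166, 95% interval -0.28 to 0.41, adjusted p = 0.886 by edgeR), and -0.085 without control replicate 3. SNAI2 (chromosome 8, 48917604 to 48921740, minus strand), which encodes Slug, had 5 counts in control replicate 2 and 0 in every other library. ZEB2 (chromosome 2, 144364364 to 144524583, minus strand) had 5, 11 and 8 counts against 8, 4 and 6. Neither was above the filter. With no filter, the log2 fold change of ZEB2 was 0.19 (adjusted p = 0.912 by edgeR). SNAI2, through its single library with counts, had an unadjusted p of 0.0353 and an adjusted p of 0.331 by the same edgeR fit. The gene length that follows from both deposited tables is 24861 bases for ZEB2 and 1705 for SNAI1, which makes the FPKM of ZEB2 small for its counts.

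In all, 6 of the 10 markers were tested and 0 passed, where 5.81% of all genes tested did. At an unadjusted p below 0.05 there were 2 of the 6 by edgeR, VIM and FN1, where 19.1% of all genes tested lay below it, and 0 of the markers passed by DESeq2, limma-voom or limma on log2 FPKM, with VIM alone below 0.05 unadjusted by DESeq2. CDH1 exceeded CDH2 in every library. CDH1 was 23.7, 36.2 and 24.6 times CDH2 in FPKM in the ZFP64-OE-labelled libraries and 20.5, 31.2 and 24.5 times in the control-labelled ones. The mean log2 ratio was 4.79 ± 0.336 and 4.65 ± 0.304 (SD, n = 3 each), a difference of 0.14 that is smaller than the spread within either group, and no test was made of it.

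Of the markers at or near 0 counts, ESRP1, OVOL1 and SNAI2 each had a relative outside the 10 markers that was detected. ESRP2, the paralogue of ESRP1 with overlapping splicing activity, lay at 6.41 to 7.26 FPKM, at a log2 fold change of -0.017 (adjusted p = 0.94 by edgeR). OVOL2, the paralogue of OVOL1, lay at 0.190 to 0.343 FPKM at a log2 fold change of -0.40 (adjusted p = 0.521 by edgeR). SNAI3 lay at 0.851 to 1.15 FPKM beside SNAI2, and its log2 fold change was -0.061 (adjusted p = 0.916 by edgeR). Among other regulators of the transition, TWIST2 lay at 0.700 to 1.30 FPKM at a log2 fold change of 0.48 (adjusted p = 0.241 by edgeR). TWIST1 had 0 counts in all 6 libraries. Among epithelial transcription factors, GRHL1 lay at 1.38 to 1.52 FPKM and GRHL2 at no more than 0.00624 FPKM. ELF3, an epithelial ETS factor, lay at 16.6 to 18.8 FPKM, and EPCAM, an adhesion protein of many carcinomas, at 0.0452 to 0.254 FPKM. ESRP2, OVOL2, SNAI3, GRHL1, GRHL2, ELF3, EPCAM and both TWIST genes were named after their values were seen.

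Of 40 other epithelial genes 31 were tested, and 3 (9.68%) fell and 0 rose, beside 4.03% lower and 1.78% higher among all genes tested, with a median log2 fold change of -0.092 beside -0.0166 over all genes tested. KRT19, a keratin of bile duct epithelium and progenitors, had 0.101, 0.162 and 0.232 FPKM in the ZFP64-OE-labelled libraries and 1.70, 1.92 and 1.55 FPKM in the control-labelled ones, 10.3-fold lower (log2 fold change -3.36, standard error 0.246, adjusted p = 1.23e-08 by edgeR). SPINT2, a membrane inhibitor of serine proteases, had 4.75, 5.38 and 4.60 FPKM against 6.22, 7.50 and 6.97 FPKM (log2 fold change -0.45, adjusted p = 0.00257 by edgeR). CLDN4, a tight junction claudin, was low throughout, at 0.0589 to 0.0848 FPKM against 0.137 to 0.176 FPKM. Its log2 fold change of -1.11 passed narrowly (adjusted p = 0.0483 by edgeR) and no longer passed when any 1 of the 6 libraries was left out, with an adjusted p of 0.0525 to 0.183. In all 3 the groups did not overlap, as in the lower direction for 14.7% of all genes tested. KRT19, SPINT2 and CLDN4 were named because they passed, which makes such separation likely. KRT18, the most abundant gene of the list and the usual keratin of hepatocytes, lay at 223 to 268 FPKM against 269 to 305 FPKM. It did not pass (log2 fold change -0.21, adjusted p = 0.283 by edgeR), though its groups did not overlap either. Desmoplakin (DSP), a desmosome protein named after its values were seen, lay at 45.2 to 56.9 FPKM over the 6 libraries at a log2 fold change of 0.17 (adjusted p = 0.457 by edgeR).

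Of 37 other mesenchymal genes 26 were tested, and 11 (42.3%) fell while 0 rose. Among all genes tested 4.03% fell and 1.78% rose. The median log2 fold change was -0.38, beside -0.0166 over all genes tested, and 23 of the 26 values were negative. The list was written with earlier results on these libraries known, some of them on its own genes, so its direction is not independent evidence. COL3A1, a fibrillar collagen chain, had 0.0996, 0.0887 and 0.113 FPKM in the ZFP64-OE-labelled libraries and 0.538, 0.506 and 0.457 FPKM in the control-labelled ones, 4.86-fold lower (log2 fold change -2.28, standard error 0.21, adjusted p = 3.79e-07 by edgeR). FBN1, the microfibril protein fibrillin-1, was lower still in level, at 0.0188 to 0.0292 FPKM against 0.0918 to 0.103 FPKM, at a log2 fold change of -1.95 (adjusted p = 7.27e-05 by edgeR). Both lay well under 1 FPKM in every library.

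NT5E and MYL9 fell by smaller folds at higher levels. NT5E, the ectonucleotidase CD73, had 9.73, 9.24 and 8.91 FPKM against 16.0, 13.8 and 14.5 FPKM, 1.55-fold lower (log2 fold change -0.63, adjusted p = 6.73e-05 by edgeR). MYL9, a myosin light chain of contractile cells, had 4.41, 4.70 and 5.41 FPKM against 7.55, 8.29 and 7.42 FPKM, 1.57-fold lower (log2 fold change -0.65, adjusted p = 0.000173 by edgeR). TPM2, a tropomyosin and the most abundant gene of the list, did not pass at 51.1, 62.3 and 74.1 FPKM against 70.9, 83.4 and 75.6 FPKM, which overlapped (log2 fold change -0.26, adjusted p = 0.177 by edgeR). Without ZFP64-OE replicate 3 it did pass (adjusted p = 0.0249 by edgeR).

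The other 7 genes of the list that fell, named after their values were seen, were VCAN, LOXL2, S100A4, LOX, AXL, COL5A2 and TGFBI, with log2 fold changes from -1.27 (VCAN, a matrix proteoglycan) to -0.36 (TGFBI, an extracellular protein induced by TGF-beta). TGFBI was the most abundant of the 11, at 40.2 to 47.1 FPKM against 52.4 to 63.1 FPKM. Leaving out 1 library at a time left 8 to 11 genes lower and none higher. COL5A2, another fibrillar collagen chain, and TGFBI each lost the call without 5 of the 6 libraries, at edgeR adjusted p up to 0.158 and 0.144. AXL, a receptor tyrosine kinase, lost it without control replicate 1 (0.0513), ZFP64-OE replicate 1 (0.0633) or ZFP64-OE replicate 3 (0.0528), all edgeR adjusted p. Stromal genes of the list, COL1A2, POSTN, TNC, FAP and MMP2, named after their values were seen, had 0 counts in all 6 libraries.

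**Figure D3:**
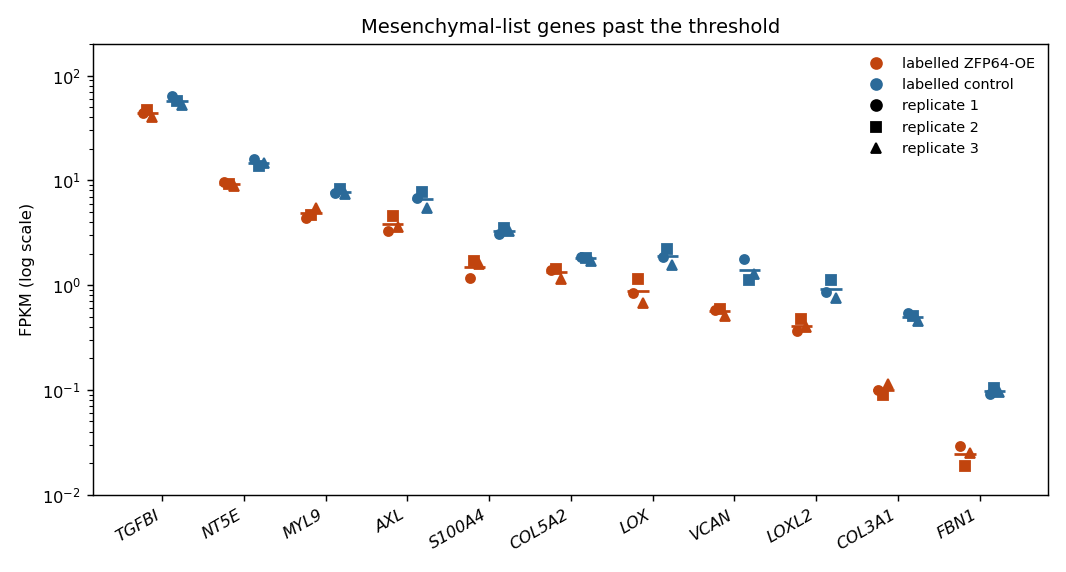
FPKM (log axis) of the 11 genes of the mesenchymal list that passed an edgeR adjusted p of 0.05, by library, with replicates as circles, squares and triangles and the group mean as a bar. In each gene the 3 libraries labelled ZFP64-OE lie below the 3 labelled control, from TGFBI (40.2 to 47.1 against 52.4 to 63.1 FPKM) to FBN1 (0.0188 to 0.0292 against 0.0918 to 0.103 FPKM). The genes were chosen because they passed, which makes such separation likely. It held in the lower direction for 14.7% of all genes tested.

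Of 26 other regulators of the transition 21 were tested, and 3 (14.3%) fell and 0 rose. Among all genes tested 4.03% fell and 1.78% rose. The median log2 fold change was -0.081, beside -0.0166 over all genes tested. Like the mesenchymal list, this list was written with earlier results on these libraries known, so its direction is not independent evidence. SOX9, a factor of biliary and progenitor cells, had 4.25, 4.15 and 4.38 FPKM in the ZFP64-OE-labelled libraries and 9.75, 9.45 and 9.73 FPKM in the control-labelled ones, 2.21-fold lower (log2 fold change -1.14, standard error 0.0823, adjusted p = 9.08e-09 by edgeR). SOX4, a related factor that acts downstream of TGF-beta, had 9.08, 8.61 and 9.23 FPKM against 12.8, 11.9 and 13.2 FPKM (log2 fold change -0.46, adjusted p = 0.000687 by edgeR). HMGA2, a chromatin protein that promotes SNAI1 transcription, had 7.28, 7.41 and 7.14 FPKM against 10.7, 9.23 and 10.1 FPKM (log2 fold change -0.43, adjusted p = 0.00373 by edgeR). In all 3 the groups did not overlap, as in the lower direction for 14.7% of all genes tested. These 3 were named because they passed, which makes such separation likely. SNAI1, which did not pass, overlapped. YBX1, the most abundant gene of the list, lay at 135 to 178 FPKM over the 6 libraries (log2 fold change -0.11, adjusted p = 0.612 by edgeR).

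Of 20 other cadherins 8 were tested, and 2, CDH17 and CDH24, fell while 0 rose. Among all genes tested 4.03% fell and 1.78% rose. CDH24, a type II classical cadherin, had 0.661, 0.692 and 0.608 FPKM against 1.19, 1.17 and 1.22 FPKM (log2 fold change -0.83, adjusted p = 0.00172 by edgeR). CDH17, the liver-intestine cadherin, had 0.121, 0.104 and 0.0588 FPKM against 0.283, 0.282 and 0.230 FPKM (log2 fold change -1.43, adjusted p = 0.00855 by edgeR). The groups did not overlap for either, as in the lower direction for 14.7% of all genes tested. Both were named because they passed, which makes such separation likely. The groups of CDH1 and CDH2, which did not pass, overlapped.

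Of 12 catenins and other adherens junction genes 10 were tested, and 1 fell, beside 4.03% lower among all genes tested. NECTIN3, an immunoglobulin-like adhesion protein, had 5.93, 5.54 and 5.04 FPKM against 7.17, 6.85 and 7.61 FPKM (log2 fold change -0.35, adjusted p = 0.0136 by edgeR). It lost the call without control replicate 3 (0.0518) or ZFP64-OE replicate 3 (0.056), both edgeR adjusted p. Of the catenins, beta-catenin (CTNNB1), which binds E-cadherin directly, had 37.5, 40.9 and 39.8 FPKM against 46.5, 45.5 and 46.9 FPKM. Its groups did not overlap, as in the lower direction for 14.7% of all genes tested. Its log2 fold change of -0.20 did not pass (adjusted p = 0.234 by edgeR). CTNNB1 was named after its values were seen. CTNNA1, which joins that pair to actin and was the most abundant gene of the list, lay at 43.3 to 49.0 FPKM over the 6 libraries at a log2 fold change of 0.071 (adjusted p = 0.761 by edgeR).

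Of 16 inducing signals, receptors and SMADs 12 were tested, and 1 rose and 0 fell. Among all genes tested 1.78% rose and 4.03% fell. The median log2 fold change was 0.11, beside -0.0166 over all genes tested. TGFB3, a TGF-beta ligand, had 2.08, 2.13 and 2.13 FPKM against 1.49, 1.55 and 1.91 FPKM. The groups did not overlap, as in the higher direction for 8.11% of all genes tested. TGFB3 was named because it passed, which makes such separation likely. The log2 fold change of 0.39 passed narrowly (adjusted p = 0.0452 by edgeR). It lost the call without 5 of the 6 libraries, at an edgeR adjusted p up to 0.25. MET, the receptor of hepatocyte growth factor and the most abundant of these genes, lay at 39.8 to 48.0 FPKM against 35.9 to 44.3 FPKM (log2 fold change 0.20, adjusted p = 0.331 by edgeR).

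**Figure D4:**
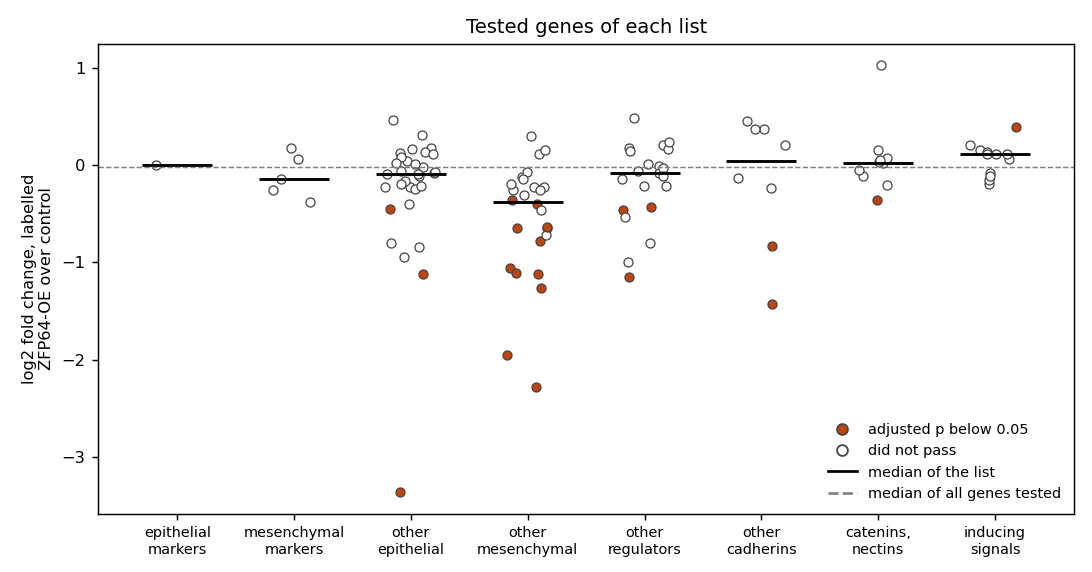
Log2 fold change (libraries labelled ZFP64-OE over labelled control) of the tested genes of each list, filled where the edgeR adjusted p is below 0.05, with the list's median as a bar and the median of all genes tested (-0.0166) as a dashed line. In the other mesenchymal genes 11 of 26 points are filled, all below 0, with a median of -0.38, and none of the markers' points is filled.

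Markers of other cell types were read in the same libraries, since several mesenchymal genes are also made by stromal cells. The 10 fibroblast markers summed to 0.852 to 1.07 FPKM in the ZFP64-OE-labelled libraries and 1.39 to 1.49 FPKM in the control-labelled ones. Of these 10, 5 also belong to the mesenchymal list, COL1A2 and FAP had 0 counts, and PDGFRB, a pericyte and fibroblast receptor, was the most abundant (log2 fold change -0.13, adjusted p = 0.675 by edgeR). COL3A1, which fell as given above, held 8.28% to 11.7% of the fibroblast sum in the ZFP64-OE-labelled libraries and 32.8% to 36.9% in the control-labelled ones. The 10 endothelial markers summed to 0.658 to 0.897 against 1.77 to 1.88 FPKM, of which PECAM1, an adhesion receptor, held 67.7% to 78.3% and 89.2% to 91.7%. PECAM1 fell (log2 fold change -1.49, adjusted p = 5.46e-07 by edgeR), and KDR, TEK, ERG and ROBO4 had 0 counts. The 10 macrophage markers summed to 177 to 215 against 295 to 333 FPKM, of which LYZ, a lysozyme that carcinoma cells can also express, held at least 99.9% in every library. LYZ fell too (log2 fold change -0.61, adjusted p = 0.000307 by edgeR), while PTPRC, the pan-leukocyte antigen, C1QA and FCGR3A had 0 counts. All 3 sums were lower in the ZFP64-OE-labelled libraries, and their part in the marker results was not tested. The markers at 0 counts were named after their values were seen.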

How the data were processed

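Libraries came from total RNA and a TruSeq RNA kit, per the labels' protocols. The submitters' processing notes name HISAT2 and GRCh38. Counting program, annotation and strand setting: not given in the sources used here. The deposited table of raw counts and the table of FPKM that the authors derived from them hold 60623 genes each. Wherever every library had a count, in 24388 genes, both tables gave 1 whole-number gene length (within 0.001 bases, relative tolerance 1e-06). Gene positions are those of GENCODE v29, which holds 58516 of the gene IDs and may not be the authors' annotation.

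Libraries were grouped by label, 3 against 3, and none was left out. The test was edgeR 4.0.16 in R 4.3.3 on the deposited counts: filterByExpr (minimum count 10, total 15), TMM scaling, the quasi-likelihood F-test on group alone, and Benjamini-Hochberg adjustment over the 19173 genes kept, at 0.05. The standard error is the log2 fold change over the square root of F. The biological coefficient of variation was 0.0857. FPKM values are as deposited and gave levels only. Within a group, any pair of replicates differed beyond sampling noise (chi-square per gene at least 10.2). Alternatives were RLE scaling, no filter, DESeq2 1.42.0, limma-voom and limma 3.58.1 on log2(FPKM + 1) and log2(FPKM + 0.1), a replicate block, and leaving out each library. Tested on simulated data for this comparison, over 18783 genes, edgeR recovered 76% of 1.5-fold and 97% of 2-fold changes with 12 false calls.

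The members and lists were chosen with earlier results of these data known, so the share called in any list is not independent evidence. Besides the members and ZFP64, the genes named were, from each list, up to 4 past the threshold with the smallest p and the most abundant one, every neighbour with a count, and the 3 genes most like CDH1 and FN1 across libraries. Others are marked in the text as named after their values were seen.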

Additional observations from a re-analysis of the deposited data

How the results depend on the processing

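The 10 markers gave 0 calls by edgeR, and also by RLE scaling, DESeq2, limma-voom, limma on log2 FPKM and with each library left out. With no filter on low counts there was 1 among the 9 markers fitted, FN1 (log2 fold change -0.37, edgeR adjusted p = 0.00512). Under that setting 1511 of all 38246 genes tested were called. The sign of CDH1 turned to -0.030 by limma on log2(FPKM + 0.1) and -0.028 on log2(FPKM + 1), and ranged from -0.086 to 0.11 with 1 library left out. That of CDH2 ranged from -0.27 to 0.089 and that of SNAI1 from -0.085 to 0.17. None of these passed. Calls over all genes fell from 1114 to 470 and 439 by limma on log2(FPKM + 0.1) and log2(FPKM + 1), and ranged from 587 without control replicate 2 to 1535 without ZFP64-OE replicate 3. The other mesenchymal genes gave 7 and 5 calls under those limma settings against 11, all lower, and the other epithelial genes 1 on log2(FPKM + 1) against 3. The cause of these changes was not tested. Of the 21 list genes called, 11 kept the call under every alternative. Over all 21 and every alternative, 49 of 273 results lost it, most often those of CLDN4, COL5A2, TGFBI and TGFB3, 1 (CLDN4 by DESeq2) had no adjusted p, and none changed sign. TPM2, not called, was called in 2. Whether replicate numbers pair the libraries is not stated. Same-numbered libraries correlated at 0.0183, 0.0198 and 0.0968 in their deviations from the group means. ZFP64-OE replicate 2 correlated better with control replicate 1 (0.15), and deviations within groups of 3 cannot decide the pairing. With a replicate block, 2096 of all 19173 genes tested were called. Of the 6 markers tested 2 passed, VIM (log2 fold change -0.25, edgeR adjusted p = 0.0206) and FN1 (-0.38, 0.00874). Depth limits ESRP1, OVOL1, SNAI2 and ZEB2, whose libraries held 0 to 11 counts, and CDH2, with 68 to 94.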

Other observations

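Across the 6 libraries, the tested protein-coding genes whose log2 CPM followed CDH1 most closely, out of 13313, were CIC, a transcriptional repressor (Pearson r = 0.989), MAGED1 (0.987) and WFS1, a protein of the endoplasmic reticulum (0.987). None of the 3 passed the test between the groups, with log2 fold changes of 0.0081, 0.00058 and -0.032. Those most like FN1 were MYO1D, an unconventional myosin (0.992), BCL9, a Wnt coactivator (0.991), and ANK3, a membrane adaptor (0.990), with log2 fold changes of -0.19, -0.12 and -0.19, of which none passed. The points are libraries that share their scaling, and these are the highest of 13313 values, so they are given as a description with no p.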
